A study of Mus musculus with 12 samples.

Results

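The regions described here are stretches of open chromatin that were called in brain macrophages after a lipopolysaccharide (LPS) challenge and that had no counterpart in the table of unchallenged cells. They were chosen by a rule on peak detection: a peak of the merged LPS table was kept if it overlapped no peak of the merged untreated table by even 1 bp, and if at least 2 lists of CD45.1 cells and at least 2 lists of CD45.2 cells contributed to it. Of 54953 merged LPS peaks, 11118 (20.2%) overlapped no untreated peak, and 1045 of these (1.90% of all LPS peaks) were found in both populations to this extent. They are called new regions below. Since detection selected them, their presence after LPS and their absence from the untreated table are a description and not a result.

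The assay was ATAC-seq, which uses a transposase to cut and tag DNA that is not covered by nucleosomes. Wild-type C57BL/6J mice had been irradiated with 950 cGy and reconstituted with donor bone marrow (BM), so that CD45.1 marked the grafted cells and CD45.2 the host microglia. All 4 groups shared irradiation and transplantation, with an interval of 3.5 or 9 months in the sample labels, which do not say which applied to which mouse, and of 9 months in the study's text. The CD45.1 LPS and CD45.2 LPS groups came from 3 mice that received 2.5 mg/kg LPS and were killed after 12 h, and the CD45.1 untreated and CD45.2 untreated groups came from 3 other mice. These counts take libraries of both populations with the same replicate number as the same mouse. The study's text does not state this pairing for ATAC-seq. The study's text gives wild-type BM donors and recipients aged 6 weeks at transplantation, and the labels give no sex. The sorted cells were positive for CD11b, low for CD45.1 or CD45.2 and negative for Ly6C and Ly6G, a gate that would remove neutrophils.

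LPS is a component of the bacterial outer membrane that is sensed by Toll-like receptor 4 (TLR4). Signalling through TLR4 and through cytokines activates NF-kappaB, AP-1 dimers of Fos and Jun proteins, interferon regulatory factors (IRF) and C/EBP proteins. In macrophages, enhancers that are closed at rest can be opened by such signal-dependent factors together with the lineage factor PU.1, and they are often termed latent or de novo enhancers. Tags are mapped reads, and a normalised tag count is the deposited raw tag count of a region divided by the DESeq2 size factor of its library.

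The DNA of 10 new regions is shown as examples of motif matches. They were picked by rank among regions that hold a match to AP-1, C/EBP, NF-kappaB or IRF anywhere in the peak, so higher-ranked regions without a match, such as those near Dusp23 and Pxk, were passed over, and the 10 do not represent the share of regions with a match. They are 3 of the most accessible new regions, 3 that were called higher in CD45.1, 2 that were called higher in CD45.2, and 2 beside the LPS response genes Socs1 and Tlr4. Sequences are from the NCBIM37 (mm9) reference, plus strand, 5′ to 3′, with matches to AP-1 (TGANTCA) and C/EBP (TTNNGCAA, either strand) in capitals.
Intergenic, nearest start 4933433H22Rik, chr17:84515679-84515940, the highest of all new regions: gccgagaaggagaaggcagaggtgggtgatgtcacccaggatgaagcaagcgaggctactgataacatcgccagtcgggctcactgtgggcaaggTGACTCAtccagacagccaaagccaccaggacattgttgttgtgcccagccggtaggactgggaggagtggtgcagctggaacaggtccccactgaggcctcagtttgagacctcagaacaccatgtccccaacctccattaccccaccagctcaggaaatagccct
Intron of Pfkfb3, chr2:11451743-11452032, the second highest, with an AP-1 match at base 265 that lies outside the central 200 bp and is not counted in the shares below: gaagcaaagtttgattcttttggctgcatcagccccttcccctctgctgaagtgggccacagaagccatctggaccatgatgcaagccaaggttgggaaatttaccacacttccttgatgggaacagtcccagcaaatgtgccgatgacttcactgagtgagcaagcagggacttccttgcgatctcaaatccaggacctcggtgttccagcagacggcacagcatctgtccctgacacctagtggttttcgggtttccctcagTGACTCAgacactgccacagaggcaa
Intron of Cflar, chr1:58776980-58777191, with a C/EBP match followed by an AP-1 match: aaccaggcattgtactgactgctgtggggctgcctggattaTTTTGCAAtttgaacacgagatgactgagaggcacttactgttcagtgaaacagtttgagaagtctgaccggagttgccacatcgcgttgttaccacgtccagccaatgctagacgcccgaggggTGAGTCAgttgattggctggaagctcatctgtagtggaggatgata
Intron of Anxa5, chr3:36366637-36366819, higher in CD45.1, with 2 AP-1 matches: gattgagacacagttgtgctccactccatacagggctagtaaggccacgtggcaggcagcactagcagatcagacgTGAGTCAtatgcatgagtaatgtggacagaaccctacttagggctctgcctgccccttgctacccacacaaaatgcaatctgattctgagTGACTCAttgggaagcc
Intergenic, downstream of the start of Etv1, chr12:39631199-39631379, higher in CD45.1: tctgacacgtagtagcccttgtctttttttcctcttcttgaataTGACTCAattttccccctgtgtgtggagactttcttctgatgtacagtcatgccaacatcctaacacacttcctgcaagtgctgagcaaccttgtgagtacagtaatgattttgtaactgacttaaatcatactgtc
Intron of Fam53b, chr7:139911271-139911455, higher in CD45.1: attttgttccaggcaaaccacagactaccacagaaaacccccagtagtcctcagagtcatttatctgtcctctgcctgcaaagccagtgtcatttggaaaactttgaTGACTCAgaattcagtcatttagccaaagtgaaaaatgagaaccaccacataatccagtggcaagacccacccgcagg
Intron of Lgmn, chr12:103632704-103632959, higher in CD45.2: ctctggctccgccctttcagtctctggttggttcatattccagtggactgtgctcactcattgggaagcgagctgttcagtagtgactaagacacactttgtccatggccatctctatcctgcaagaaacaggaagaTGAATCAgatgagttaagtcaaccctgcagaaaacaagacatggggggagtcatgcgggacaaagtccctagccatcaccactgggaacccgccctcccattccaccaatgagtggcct
Intron of Zdhhc18, nearest start Sfn, chr4:133170419-133170603, higher in CD45.2: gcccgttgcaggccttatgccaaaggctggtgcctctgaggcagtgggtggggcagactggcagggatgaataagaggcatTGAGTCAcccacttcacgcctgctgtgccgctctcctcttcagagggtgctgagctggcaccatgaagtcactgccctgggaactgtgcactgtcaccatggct
Intergenic, near Socs1, chr16:10754719-10754916, with 3 AP-1 matches: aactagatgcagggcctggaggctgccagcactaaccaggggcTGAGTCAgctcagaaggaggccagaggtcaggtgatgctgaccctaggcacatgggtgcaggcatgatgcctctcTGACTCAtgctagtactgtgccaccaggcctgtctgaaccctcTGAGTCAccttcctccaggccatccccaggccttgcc
Intron of Tlr4, chr4:66489796-66489970: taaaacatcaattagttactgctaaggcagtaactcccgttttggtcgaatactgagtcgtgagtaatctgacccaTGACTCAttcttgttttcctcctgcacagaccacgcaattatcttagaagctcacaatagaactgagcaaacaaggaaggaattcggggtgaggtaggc
In these 10 regions the AP-1 core appears as TGACTCA or TGAGTCA, which are the same motif on opposite strands, except in the Lgmn intron, where it reads TGAATCA.

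The 6 LPS libraries held between 2966364 and 6556594 tags, and the 6 untreated libraries held between 8392878 and 9107770. The library of CD45.2 cells from LPS mouse 1 was the shallowest, and 518 of the new regions (49.6%) had a peak in its list against 901 to 1027 in the other 5 LPS lists. Median raw tags per new region were 9.5 in that library and between 16 and 33.5 in the others, and 87 new regions had 3 tags or fewer there against at most 7 elsewhere. The untreated lists reached down to lower peaks (lowest listed height 5.24 to 6.38 tags per 10000000) than the LPS lists (7.63 to 15.2). Genes of microglial identity carried tags in all libraries. After LPS they summed to 522 to 590 per 1000000 peak tags in CD45.1 and 706 to 830 in CD45.2. In untreated cells these sums were 589 to 849 in CD45.1 and 1140 to 1223 in CD45.2. Markers of monocyte-derived macrophages in CD45.1 summed to 379.4 to 390.5 in untreated and 265.7 to 322.2 in LPS libraries. In CD45.2 they summed to 262.8 to 290.7 and 208.5 to 248.6. The 7 neutrophil markers summed to 31.7 to 59.6 (CD45.1) and 43.0 to 81.1 (CD45.2) per 1000000 peak tags after LPS, against 32.1 to 40.8 and 20.9 to 28.9 in untreated cells, where S100a8, Ly6g, Camp and Cxcr2 had no peak. The promoter of Camp, which encodes the antimicrobial peptide cathelicidin of neutrophil granules, was itself a new region, with 8.89, 10.4 and 26.4 normalised tags in CD45.1 and 3.50, 10.5 and 31.5 in CD45.2. Astrocyte markers summed to 136 to 197 per 1000000 peak tags in untreated and 242 to 300 in LPS libraries over both populations, and endothelial markers in CD45.1 to 240 to 256 and 327 to 351. In CD45.2 the endothelial ranges were 332 to 377 and 367 to 384. Oligodendrocyte, B cell and T cell sums were lower after LPS. Over both populations, oligodendrocyte markers summed to 395 to 438 in untreated and 341 to 373 in LPS libraries. B cell markers summed to 77.0 to 88.9 and 41.1 to 59.3, and T cell markers to 72.0 to 138 and 50.1 to 70.4. Neuron markers were not lower in CD45.1, at 44.1 to 46.4 in untreated and 48.3 to 49.8 in LPS libraries. In CD45.2 they summed to 97.0 to 111 and 90.6 to 135. Untreated and LPS sums rest on separately called peaks. New regions also lay nearest to the endothelial markers Pecam1, Kdr and Flt1 and the astrocyte marker Slc1a2, with means over the 6 LPS libraries of 19.5, 13.2, 15.2 and 28.6 normalised tags, and each of these 4 had a peak in at least 1 untreated list. The part of other cells in the new regions was not tested.

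The new regions lay away from promoters. By the deposited annotation 530 (50.7%) were in introns, 443 (42.4%) were intergenic and 36 (3.44%) were at a promoter. Among all LPS peaks 22.7% were at promoters, and among the 24095 LPS peaks of at least 2 lists in each population that did overlap an untreated peak (shared peaks) this was 37.4%. The median distance to the nearest transcription start was 20369 bp for new regions and 10920 bp for all LPS peaks. New regions were as wide as shared peaks (median 195 bp, range 131 to 551 bp, against 194 bp), and their median GC content was 48.5% against 55%. LPS-only peaks of a single population were also mostly away from promoters. Those of at least 2 CD45.1 lists and no CD45.2 list had 4.07% at promoters, a median distance of 26596.5 bp and a median GC content of 46%. For those of at least 2 CD45.2 lists and no CD45.1 list the values were 8.17%, 23380 bp and 50%. Outside promoters, annotated repeats held 19.9% of new regions and 12.6% of shared peaks, and the long terminal repeat class held 85 of all 1045 new regions (8.13%).

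Most new regions were solitary. They were spread over 20 chromosomes and nearest to 911 genes, of which 804 had a single new region, 87 had 2 and 20 had 3 or more. Only 53 (5.07%) had another new region within 10 kb. The nearest untreated peak was a median of 4250 bp away, with 266 new regions (25.5%) within 1 kb of one and 275 (26.3%) beyond 10 kb. At the edge of the rule, the new region near Exosc8 directly abutted an untreated peak and those near Dusp6 and Itga1 lay 6 bp from one, whereas peaks near Rbpj, Fbxl4 and Celf2 were left out for overlaps of 5, 6 and 7 bp.

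Nearly all nearest genes already had open chromatin at rest. Of the 911 genes, 52 had no peak in the untreated table. That table held 60288 peaks, and the same share was not counted over all genes with LPS peaks. As an example, Slc7a11, the gene with the most new regions, had 11 untreated and 20 LPS peaks.

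The AP-1 motif was the most frequent motif searched in the new regions. The patterns differ in length and in fixed bases, so shares can be compared between sets of regions but not between motifs. Within 200 bp around the centre, TGANTCA, which reads the same way on both strands, was present in 44.5% of new regions, in 13.4% of all LPS peaks and in 11.6% of shared peaks. The form with C or G at the centre (TGAGTCA) was present in 37.5% and the form with A or T (TGAATCA) in 10.05%, against 9.54% and 2.37% of shared peaks. The cyclic AMP response type with a 2-base spacer (TGANNTCA) differed less, at 13.1% against 9.65% of shared peaks. Of the new regions, 98 (9.38%) held at least 2 separate TGANTCA matches, a share that was not counted for other peaks.

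LPS-only peaks of a single population lay between these values. TGANTCA was present in 37.9% of the 984 LPS-only peaks of at least 2 CD45.1 lists and no CD45.2 list, and in 24.3% of the 734 LPS-only peaks of at least 2 CD45.2 lists and no CD45.1 list. These sets differ from the new regions in the number of lists that found them. No test was made of these shares, since neighbouring peaks and peaks of the same libraries are not independent samples.

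The difference in the AP-1 share was present in each class of base composition outside promoters. In the low GC class (up to 48.5% GC) 42.2% of 488 new regions and 18.8% of 4843 shared peaks held TGANTCA. In the middle class the shares were 48.0% and 17.9%, and in the high class (above 56.5% GC) 46.9% of 81 new regions and 10.7% of 3531 shared peaks. The matches were centred. The density rose from 0.670 matches per 100 new regions in the 20 bp bin farthest upstream to 9.67 in the bin just right of the centre, and in shared peaks from 0.494 to 1.80.

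C/EBP came next. TTNNGCAA, searched on both strands, was present in 28.4% of new regions, 12.2% of all LPS peaks and 10.7% of shared peaks, and in the low GC class outside promoters in 31.6% against 20.3%. The C/EBP-ATF composite (TGATGCAA), a separate pattern that TTNNGCAA does not include, was present in 3.73% against 0.98%. C/EBP and AP-1 matches occurred together in 100 new regions (9.57%). The sequence at Cflar printed above is an example, with C/EBP at base 42 and AP-1 at base 167.

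NF-kappaB, IRF and PU.1 had lower shares in new regions than AP-1 and C/EBP, but the patterns differ in length and in fixed bases. Each is therefore set only against its own share in other peaks. The NF-kappaB consensus was present in 7.75% of new regions and 6.96% of all LPS peaks, the IRF pattern GAAANNGAAA in 2.58% and 3.47%, and the PU.1 pattern GAGGAAGT in 7.94% and 8.72%. Outside promoters and by GC class (low, middle and high), NF-kappaB was present in 7.17%, 7.95% and 12.3% of new regions and in 4.60%, 7.11% and 10.5% of shared peaks. PU.1 was present in 10.2%, 6.36% and 4.94% of new regions and in 14.9%, 14.3% and 6.74% of shared peaks, lower in new regions in each class. STAT (TTCNNNGAA) was present in 8.42% of new regions against 5.74% of all LPS peaks. The glucocorticoid receptor pattern ACANNNTGT was present in 9.57% against 6.07%, and RUNX (TGTGGTT) in 7.66% against 5.82%. Outside promoters, STAT and glucocorticoid receptor shares were higher in new regions than in shared peaks in each GC class. RUNX was lower in the low (7.58% against 8.09%) and middle (7.5% against 7.85%) classes. It was higher only in the high class (9.88% against 3.31%). CTCF, the insulator protein (CCANNAGNNGGC), and the SP and KLF factors of GC-rich promoters (CCCGCCC) were rarer. Their shares were 1.72% against 7.34% and 2.49% against 15.5% of all LPS peaks. Both patterns were also rarer in new regions than in shared peaks in each GC class outside promoters. At least 1 of the AP-1, C/EBP, NF-kappaB and IRF patterns was present in 713 new regions (68.2%), and 141 (13.5%) held none of the motifs searched. These shares were not counted for other peaks. A match is a string in the reference and not a bound site, and a missing match says only that these letters are not in the window.

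**Figure D1:**
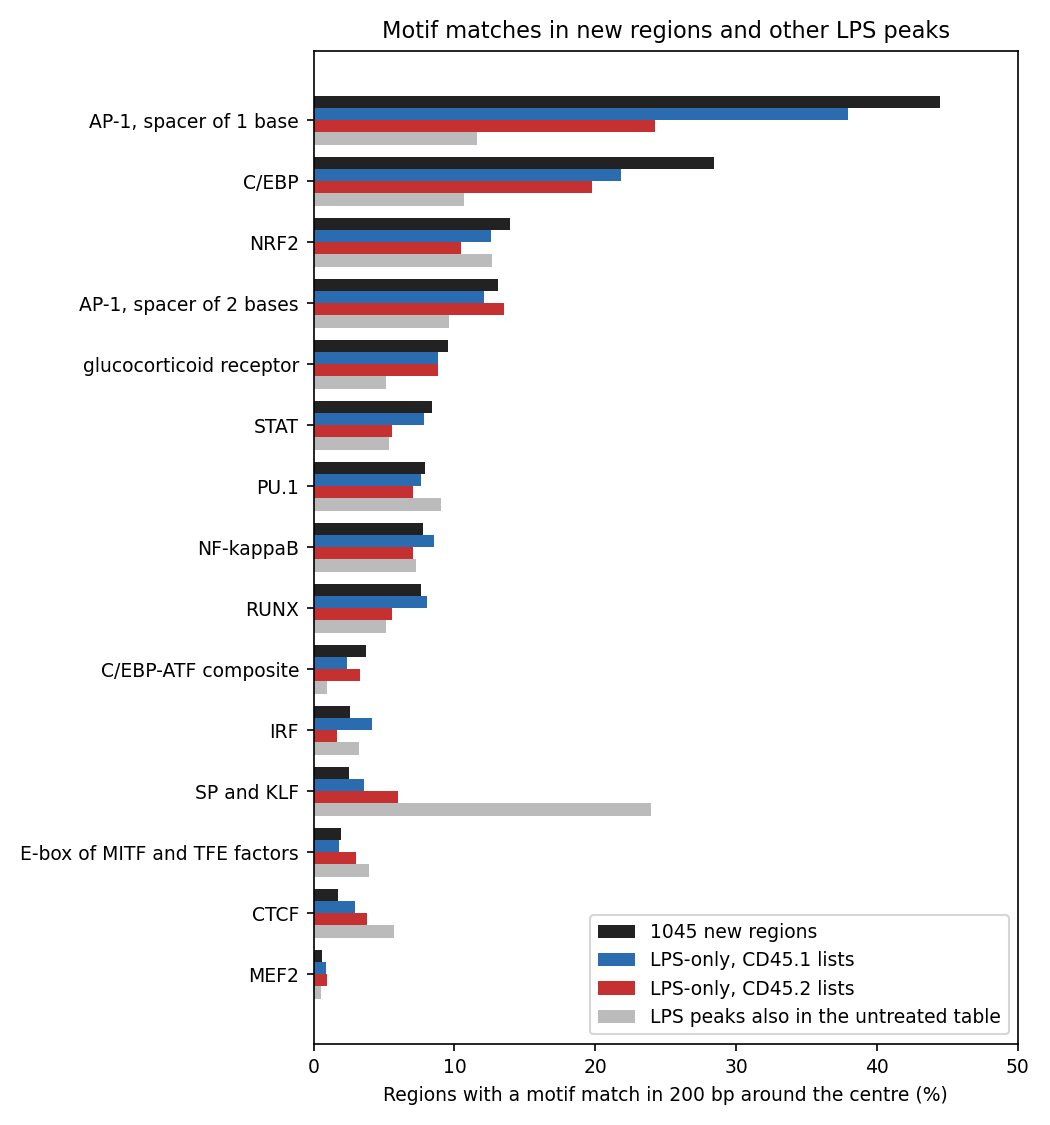
Percentage of regions with a match to each motif in 200 bp around the centre (x axis) for the 1045 new regions (black), the 984 LPS-only peaks of CD45.1 lists (blue), the 734 LPS-only peaks of CD45.2 lists (red) and the 24095 shared peaks (grey). The AP-1 pattern with a 1-base spacer reaches 44.5% in new regions and 11.6% in shared peaks, whereas SP and KLF and CTCF are lower in new regions.

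**Figure D2:**
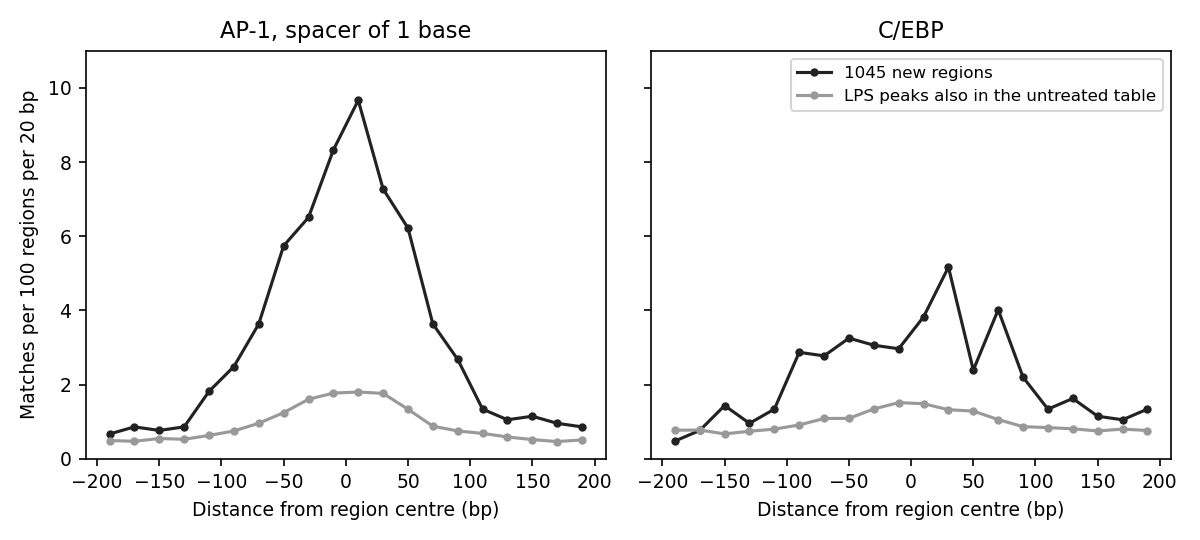
Matches per 100 regions in 20 bp bins (y axis) against the distance from the region centre in bp (x axis) for AP-1 with a 1-base spacer (left) and C/EBP (right), in new regions (black) and shared peaks (grey). AP-1 matches in new regions peak at the centre at 9.67 per 100 regions, and C/EBP matches form a broader and lower rise.

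Mean normalised tags over the 6 LPS libraries ranged from 2.46 to 80.4 with a median of 19.6, above the median of 13.8 over all LPS peaks. The highest region lay 37809 bp from the start of 4933433H22Rik, with 92.2, 86.1 and 43.4 normalised tags in CD45.1 and 98.1, 101 and 61.2 in CD45.2 (mice 1 to 3). The populations overlapped, and mouse 3 was the lowest in both.

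The second highest lay in an intron of Pfkfb3, whose product makes the activator of the glycolytic enzyme phosphofructokinase. It had 79.2, 123 and 75.5 normalised tags in CD45.1 and 70.1, 65.4 and 60.6 in CD45.2. The CD45.1 values were all higher, but the log2 fold change of 0.50 (SE 0.25) had an adjusted p of 0.314 in DESeq2. An intron of Cflar, which encodes the caspase-8 inhibitor c-FLIP, had 72.8, 80.9 and 81.1 against 66.6, 61.1 and 76.0 (log2 fold change 0.19, SE 0.24). Both regions belonged to those with a weak untreated peak, described last.

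The other 7 of the 10 highest lay near Mir5129, Snx18, Exosc8, Bin1, Trib1, Arl15 and Tgif1. Snx18 encodes a sorting nexin, Trib1 a pseudokinase that promotes degradation of C/EBP alpha, and Tgif1 a homeodomain repressor in TGF-beta signalling. The Trib1 intron had 70.3, 71.8 and 52.8 normalised tags in CD45.1 and 49.0, 54.9 and 39.2 in CD45.2. The region near Mir5129 had 29.1, 41.7 and 71.7 in CD45.1 and 91.1, 71.5 and 79.6 in CD45.2, and the difference did not pass (log2 fold change -0.76, SE 0.30, adjusted p 0.126, DESeq2). None of the 10 highest new regions was called different between the populations by DESeq2 at an adjusted p of 0.05.

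**Figure D3:**
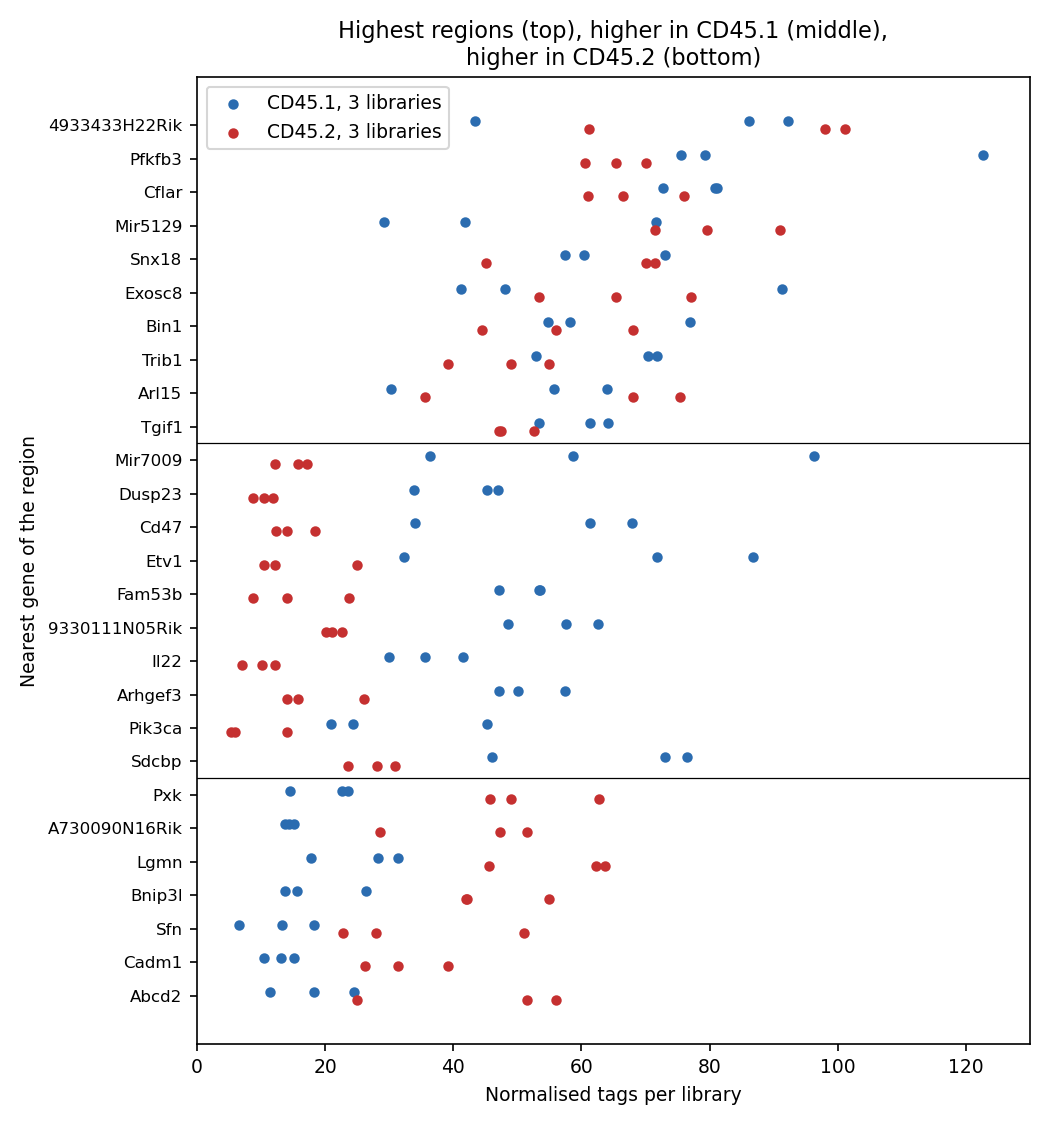
Normalised tags per library (x axis, linear) of the 10 new regions with the highest mean (top), the 10 called higher in CD45.1 with the smallest adjusted p (middle) and the 7 called higher in CD45.2 (bottom), named by their nearest gene. Each point is a library of CD45.1 (blue) or CD45.2 (red) cells, with 3 mice a population. In the middle and bottom blocks, chosen by a call on these libraries, the colours do not overlap.

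New regions were frequent near genes of the NF-kappaB pathway and its feedback. Of the LPS peaks nearest to the 19 listed NF-kappaB subunits and inhibitors, 11 of 156 (7.05%) were new regions, against 1.90% of all LPS peaks, and 9 of the 19 genes (47.4%) had at least 1, against 5.64% of all genes with LPS peaks. The lists were drawn up with earlier results of these data known, genes with many peaks have more chances, and the shares were not tested. The genes were Nfkb1, Nfkbiz, Nfkbia, Cyld, Tnfaip3, Tnip1, Tnip2, Rel and Traf1.

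Nfkb1, which encodes the p105 precursor of the p50 subunit, had 2 new regions in its introns. The region 20775 bp from the start had 35.6, 36.5 and 56.6 normalised tags in CD45.1 and 28.0, 38.4 and 42.7 in CD45.2, and held both an NF-kappaB and a C/EBP match. Nfkbia, the gene of the inhibitor I-kappaB alpha, had a region 25596 bp downstream of its start with 30.7, 57.4 and 49.1 against 24.5, 24.4 and 40.4. The populations overlapped at both.

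Inhibitors of signalling formed a second such group. Of 144 LPS peaks nearest to 17 genes of SOCS, DUSP and RNA decay feedback 9 (6.25%) were new regions, near Socs1, Dusp6, Dusp1, Dusp10, Zfp36l1, Zfp36l2 and Fkbp5. Socs1, which blocks Janus kinases, had a region 30812 bp from its start with 34.0, 62.6 and 73.6 normalised tags in CD45.1 and 42.0, 22.7 and 42.7 in CD45.2. This is the sequence with 3 AP-1 matches printed above. Dusp1, a phosphatase of p38 and JNK, had a region at -4208 bp from its start with 30.7, 32.6 and 25.5 against 31.5, 44.5 and 43.3.

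Cytokine and chemokine genes were counted apart. Of 107 LPS peaks nearest to 22 cytokine genes 8 (7.48%) were new regions, near Il1rn, Il1a, Il10, Il12b, Il18, Csf1, Csf2 and Lif, and of 79 nearest to chemokine genes only 1 (1.27%) was, near Ccl17. Il1rn encodes the interleukin-1 receptor antagonist, and a region in its intron had 21.02, 32.6 and 56.6 normalised tags in CD45.1 and 17.5, 27.9 and 41.0 in CD45.2. The Ccl17 region was lower in all 3 CD45.1 libraries (19.4, 26.1 and 29.2) than in the CD45.2 libraries (36.8, 48.8 and 40.4), with an adjusted p of 0.196 (log2 fold change -0.78, SE 0.34, DESeq2).

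Effector and metabolic genes of activated macrophages had 9 new regions of 204 peaks (4.41%). Acod1, whose enzyme makes itaconate, had one at -75 bp from its start with 25.9, 41.7 and 54.7 normalised tags in CD45.1 and 31.5, 27.9 and 56.4 in CD45.2. An intron of Sod2, the mitochondrial superoxide dismutase, had 40.4, 40.4 and 34.0 against 24.5, 36.6 and 32.1. An intron of hexokinase 2 (Hk2) had 44.5, 33.9 and 37.7 against 22.8, 38.4 and 29.7. The rest were at Pfkfb3 (2), Hif1a, Fpr1, Plaur and Saa3.

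LPS sensing genes had 3 of 106 (2.83%), near Tlr4, Tlr1 and Map3k8. The Tlr4 region lay in an intron 1298 bp from the start and had 25.9, 49.6 and 57.6 normalised tags in CD45.1 and 49.0, 34.9 and 30.9 in CD45.2. AP-1 and immediate early genes had 5 of 178 (2.81%), of which 2 were near Fos, and C/EBP, STAT and IRF genes had 5 of 115 (4.35%), of which 3 were near Irf8. Interferon-stimulated genes had 3 of 93 (3.23%), near Parp14, Bst2 and Trim30a.

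Homeostatic microglia genes were near the share of all peaks, with 4 new regions of 227 peaks (1.76%), at Tmem119, Mef2c, Mef2a and Sall3. The region at -5184 bp from the start of Tmem119, which encodes a microglial surface protein, had 27.5, 33.9 and 28.3 normalised tags in CD45.1 and 7.01, 15.7 and 19 in CD45.2. The groups did not overlap, yet the log2 fold change of 1.00 (SE 0.42) had an adjusted p of 0.168 in DESeq2. No new region of any of the 10 gene lists was called different between the populations.

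Slc7a11, the transport subunit of the cystine and glutamate exchanger, had the most new regions. There were 6 among its 20 LPS peaks, spread from 122479 to -293800 bp from the start (negative is upstream). The strongest, in an intron, had 35.6, 39.1 and 70.8 normalised tags in CD45.1 and 42.0, 36.6 and 34.4 in CD45.2. The 3 regions between -162317 and -172299 bp were close neighbours, and all 3 had lower values in CD45.1 mouse 1 than in every CD45.2 library. None of the 6 was called.

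Gm17746 followed with 5, and Frmd4a and Cited2 with 4 each. Cited2 encodes a CBP and p300 binding protein, and its 4 regions were intergenic and low, with means between 8.39 and 30.7 normalised tags per population. Marcks, Rab31, Lsm14a, 1810010D01Rik, Pvt1 and Ch25h had 3 each. Ch25h makes 25-hydroxycholesterol, an oxysterol of antiviral defence, and each of its 3 regions, 39728 to 54522 bp from the start, also had a weak peak in at least 3 untreated lists. Marcks, a protein kinase C substrate, had the strongest region of this group, at -89177 bp from the start, with 51.8, 56.1 and 69.8 in CD45.1 and 49.0, 45.4 and 42.2 in CD45.2.

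At promoters, the highest new region lay at -35 bp from an annotated start of Zeb2, which encodes a zinc finger factor that maintains macrophage identity, with 53.4, 36.5 and 40.6 normalised tags in CD45.1 and 54.3, 48.0 and 32.7 in CD45.2. Tmem268 had 38.8, 41.7 and 41.5 against 33.3, 40.1 and 39.8. Ldhb, Prss22, Fam134b, Chpt1, Shc1 and Fam65b were next, with population means between 18.5 and 37.5. The promoter region of Mir1956, inside Eif4e, was the only one of the 36 called different between populations, with 48.5, 57.4 and 62.3 in CD45.1 against 31.5, 26.2 and 21.4 in CD45.2 (log2 fold change 1.13, SE 0.31, adjusted p 0.00885, DESeq2). It did not pass with the replicate block (adjusted p 0.101) or without either CD45.1 mouse 2 or 3 or CD45.2 mouse 2 or 3.

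Grafted cells and host microglia were then compared at the new regions after LPS. Of 1045 regions 1041 passed the filter on low counts, and 38 (3.65%) were called higher in CD45.1 and 7 (0.672%) higher in CD45.2 by DESeq2 at an adjusted p of 0.05. Over all 49180 LPS peaks tested, 4.08% were called higher in CD45.1 and 2.38% higher in CD45.2. The rule asks for detection in both populations, which limits the differences that members can show. In edgeR 85 and 22 regions were called, and with the mouse as a replicate block in DESeq2 13 and 2. Without single libraries, the calls higher in CD45.1 fell to 9 and 10 (without CD45.1 mouse 2 or 3) and to 23, 10 and 15 (without CD45.2 mouse 1, 2 or 3), and those higher in CD45.2 were 1 without CD45.1 mouse 1, 0 without CD45.2 mouse 2 and 4 without CD45.2 mouse 3.

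At an adjusted p of 0.01 and more than 4-fold, 3 new regions (0.288%) were higher in CD45.1, against 1.78% of all LPS peaks, and 0 were higher in CD45.2, against 1.19%. For this count of 0, edgeR also gave 0, and 36 new regions had an unadjusted DESeq2 p under 0.05 with a higher level in CD45.2, against 106 with a higher level in CD45.1. These counts were 14 and 144 with scaling to total tags, and 19 and 72 with the replicate block. In the main fit, 142 of 1041 new regions and 7622 of all 49180 LPS peaks had an unadjusted DESeq2 p under 0.05. The split by direction was not counted over all peaks. The 3 strict calls were absent without CD45.1 mouse 3 and without CD45.2 mouse 2, and rose to 6 without CD45.2 mouse 3.

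The median log2 fold change of CD45.1 over CD45.2 was 0.15 at new regions and -0.01 over all LPS peaks, and 634 new regions (60.9%) had a value above 0. Changes under 2-fold were found for 91.9% of new regions and 81.9% of all LPS peaks. Scaling to total tags in place of size factors raised the median of all peaks by 0.14 on the log2 scale towards CD45.1, and that of the new regions to 0.27. New regions held 1.55, 1.83 and 2.05% of the tags in merged peaks in CD45.1 (mice 1 to 3) and 1.47, 1.60 and 1.84% in CD45.2. Paired by replicate number, the share was higher in CD45.1 in all 3 mice. The difference was 0.172 ± 0.0848 percentage points (SD, n = 3 mice). It had p = 0.25 in a two-sided exact paired permutation test, the smallest that 3 mice allow.

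The clearest difference was in an intron of Anxa5, which encodes a phosphatidylserine-binding annexin. The region (nearest start Mir7009) had 36.4, 58.7 and 96.2 normalised tags in CD45.1 and 15.8, 12.2 and 17.2 in CD45.2. Every CD45.1 library was above every CD45.2 library, which a call on the same libraries makes likely. The log2 fold change was 2.07 (SE 0.39, adjusted p 1.88e-05, DESeq2).

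Near Dusp23, a small dual-specificity phosphatase gene, a region at -10817 bp from the start had 46.9, 33.9 and 45.3 normalised tags in CD45.1 and 10.5, 8.72 and 11.9 in CD45.2. The log2 fold change was 2.02 (SE 0.41, adjusted p 7.63e-05, DESeq2). The third strict call was near Pik3ca, which encodes the catalytic p110 alpha subunit of phosphoinositide 3-kinase, with 24.3, 20.9 and 45.3 against 14.01, 5.23 and 5.94 (2.01, SE 0.51). It was the weakest region of the 3 and was lost without CD45.1 mouse 3, CD45.2 mouse 2 or CD45.2 mouse 3.

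Cd47, the ligand of the inhibitory phagocyte receptor SIRP alpha, had an intronic region with 34.0, 61.3 and 67.9 normalised tags in CD45.1 and 12.3, 13.96 and 18.4 in CD45.2 (log2 fold change 1.81, SE 0.38, adjusted p 0.000162, DESeq2). A region 120991 bp from the start of the ETS factor gene Etv1 had 32.3, 71.8 and 86.8 against 10.5, 12.2 and 24.9. A region near Il22, the gene of a cytokine of lymphoid cells, had 35.6, 30.0 and 41.5 against 7.01, 12.2 and 10.1. In all of these the CD45.1 values lay above the CD45.2 values, which a call on the same libraries makes likely. Etv1 was not called without CD45.2 mouse 1 (adjusted p 0.107, DESeq2).

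Introns of Fam53b, Gpr98 (nearest start 9330111N05Rik), Arhgef3 and Sdcbp completed the 10 with the smallest adjusted p. Arhgef3 is an exchange factor for RhoA, and Sdcbp encodes the exosome adaptor syntenin. The log2 fold changes of these 4 ranged from 1.23 to 1.61. Arhgef3 and Sdcbp were not called without CD45.1 mouse 2 or CD45.2 mouse 2, nor Sdcbp without CD45.1 mouse 3. Of the 38 regions higher in CD45.1, 28 had come from 3 CD45.1 and 2 CD45.2 lists and 10 from all 6. TGANTCA was present in 21 of the 38 and TTNNGCAA in 9.

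The 7 regions higher in CD45.2 were all intronic. Pxk, a sorting protein with a phox homology domain, had 14.6, 23.5 and 22.6 normalised tags in CD45.1 and 49.0, 62.8 and 45.7 in CD45.2 (log2 fold change -1.40, SE 0.34, adjusted p 0.00204, DESeq2). An intron of Kcnab1 (nearest start A730090N16Rik) had 13.7, 14.4 and 15.1 against 47.3, 51.5 and 28.5 (-1.54, SE 0.40). Both were called with the replicate block (adjusted p 0.0327 and 0.0424), and neither was called without CD45.2 mouse 2, nor Pxk without CD45.1 mouse 1.

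Lgmn, the gene of the lysosomal protease legumain, had 17.8, 31.3 and 28.3 normalised tags in CD45.1 and 45.5, 63.7 and 62.3 in CD45.2 (log2 fold change -1.20, SE 0.32, adjusted p 0.00671, DESeq2, and 0.0675 with the replicate block). Bnip3l, a mitophagy receptor gene, had 13.7, 15.7 and 26.4 against 42.0, 54.9 and 42.2. The regions of Sfn, Cadm1 and Abcd2 had log2 fold changes between -1.52 and -1.27. These 3, Lgmn and Bnip3l did not pass with the replicate block, where their adjusted p ranged from 0.0675 to 0.185, and each was lost without at least 3 of the 6 libraries in turn. In Abcd2 the groups nearly met, at 24.5 in the highest CD45.1 and 24.9 in the lowest CD45.2 library.

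**Figure D4:**
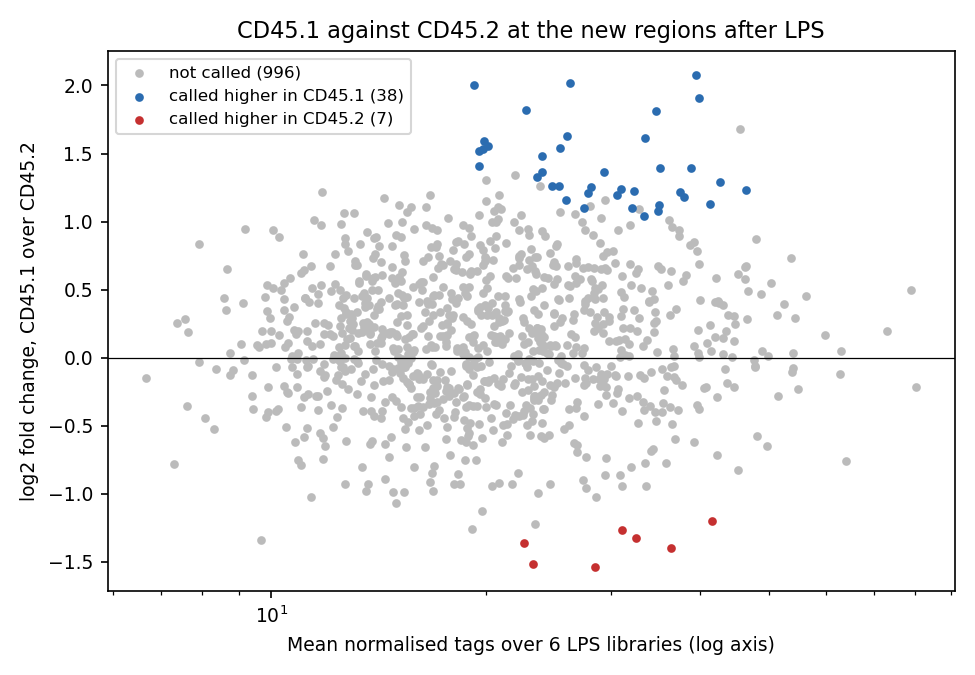
log2 fold change of CD45.1 over CD45.2 (y axis) against mean normalised tags over 6 LPS libraries (x axis, log scale) for the 1041 new regions tested, each a point. Regions called higher in CD45.1 (38, blue) lie between 1.04 and 2.07, those called higher in CD45.2 (7, red) between -1.54 and -1.20, and grey points were not called.

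Whether the genes of these regions already differed at rest was read from the untreated mice, which are separate animals. Tags of all untreated peaks nearest to a gene were summed. Of 35 genes with a region higher in CD45.1 and an untreated sum, 9 (25.7%) were also called higher in CD45.1 at rest and 0 higher in CD45.2 (DESeq2, adjusted p 0.05), where 7.35% and 7.46% of all 16174 genes were called. The 35 genes were not matched to all genes for number of peaks or tags, and genes with higher sums are called more readily. The 9 genes had between 1 (Mir7009) and 22 (Gcnt1) untreated peaks. With the replicate block 6 genes were called, and 5 were called without CD45.2 mouse 5 or without CD45.2 mouse 6. Of 6 genes with a region higher in CD45.2, none was called at rest in either direction.

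The 9 genes were Arhgef3, Gcnt1, Gm1653, Mir7009, Myo3b, Pde4b, Rap2b, Sdcbp and Tfec. Tfec, a MiT family transcription factor gene of macrophages, had 211, 270 and 225 normalised tags at rest in CD45.1 and 87.5, 100.2 and 111 in CD45.2 (mice 4 to 6, log2 fold change 1.22, SE 0.17, adjusted p 4.66e-11, DESeq2). Rap2b, a small GTPase gene, had 771, 739 and 745 against 408, 348 and 387, which is 0.99 (SE 0.10) on the log2 scale. Mir7009 rested on 1 untreated peak with at most 10.6 normalised tags, and was at 0 in 2 of the CD45.2 libraries. For Cd47, Etv1, Dusp23 and Fam53b the resting log2 fold changes were 0.06, 0.12, -0.08 and 0.00, none of which passed.

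The lists of single libraries gave a further view of the untreated cells, since a peak could be listed in a library without entering the merged table. Of the 1045 new regions, 445 (42.6%) overlapped a peak in at least 1 of the 6 untreated lists, and 600 overlapped none. There were 180 with a peak in exactly 1 untreated list, 111 in 2, 82 in 3, 46 in 4, 24 in 5 and 2 in 6. In 181 the untreated peaks were from CD45.1 lists alone, in 96 from CD45.2 lists alone and in 168 from both.

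These untreated peaks were low. The highest untreated height of a region had a median of 9.86 tags per 10000000 (range 5.82 to 24.4), against a median LPS height of 23.9 in the same regions and 28.4 in the 600 others. All 445 were lower in untreated than after LPS, with a median ratio of LPS to untreated height of 2.52. As the rule removed regions with a merged untreated peak, these heights are a description. The lowest height of a new region in an LPS list was 9.91 to 16.9, depending on the library. The median LPS height covers only the LPS lists that held a peak. Equally low heights could therefore hardly appear after LPS, and the ratio does not measure a change in accessibility. In the untreated lists, the peaks that lay outside the merged table made up 2.58 to 14.5% of a list and had median heights of 8.23 to 9.28, whereas those inside had 17 to 24.5.

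The motif shares were close in both classes for AP-1 (44.3% of the 600 and 44.7% of the 445) and C/EBP (28.2% and 28.8%). NF-kappaB was present in 9.50% of the 600 and 5.39% of the 445, and PU.1 in 5.83% and 10.8%. Among the 10 highest new regions, those of Pfkfb3, Cflar and Mir5129 had an untreated list peak (8.34, 10.4 and 10.7 tags per 10000000 at most, against median LPS heights of 75.0, 76.9 and 69.85). The regions near 4933433H22Rik, Snx18, Exosc8, Bin1, Trib1, Arl15 and Tgif1 had none, and neither did those in Tlr4 and near Socs1, Nfkbia and Acod1.

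**Figure D5:**
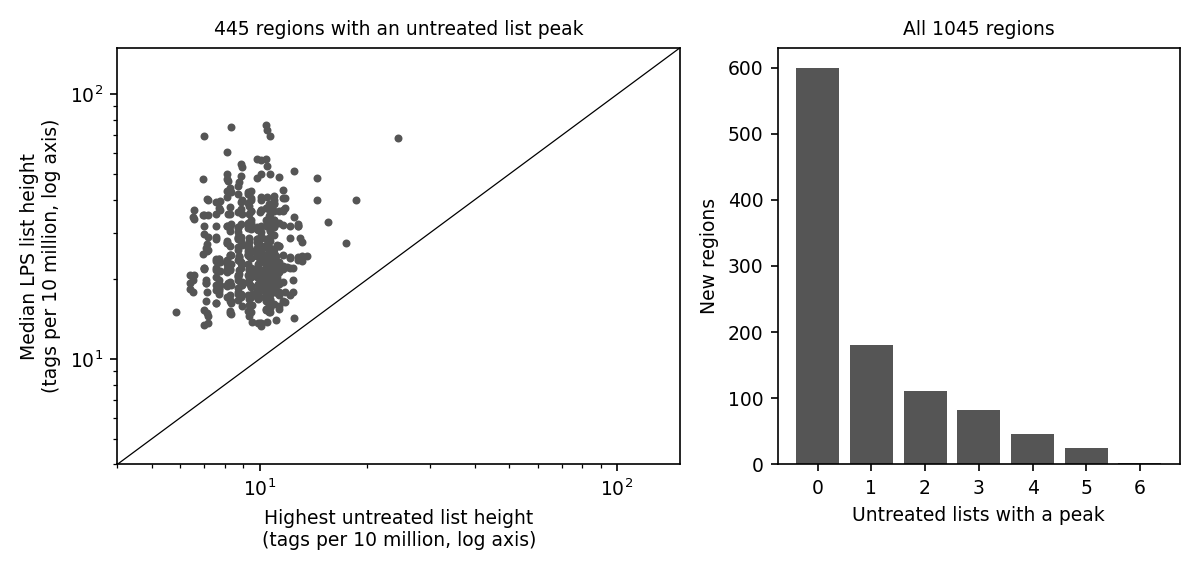
Left, median height over LPS lists (y axis, log scale) against the highest height in an untreated list (x axis, log scale), both in tags per 10000000, for the 445 new regions with an untreated list peak, with a line of equality. All points lie above the line. The LPS lists did not reach down to peaks as low as the untreated lists did. Right, number of new regions (y axis) by the number of untreated lists with a peak (x axis), from 600 in none to 2 in all 6.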

How the data were processed

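By the replicate numbers, the 12 ATAC-seq libraries came from 3 LPS and 3 untreated mice with CD45.1 and CD45.2 cells of each. Per the submitters' processing notes, reads were converted with bcl2fastq 2.17.1.14, aligned to mm9 with Bowtie2 and peaks were called with HOMER, and Picard 1.108 is also named. The study's methods name a filter on the irreproducible discovery rate. The merged tables deposited by the authors hold HOMER tag counts in steps of 0.5, which were used as estimated counts and rounded to whole numbers for the fits. The single-library lists deposited by the authors hold peak heights as a signal of tags per 10000000 and a ratio of tags to local background. The files of the reference matched the build of the peaks, with 0 peaks beyond a chromosome end. No column of another sample was present or used.

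The filter kept peaks with a deposited count above 10 in at least 1 of 6 libraries. DESeq2 1.42.0 (R 4.3.3) compared CD45.1 with CD45.2 over all 49180 LPS peaks, and over 16174 gene sums in untreated mice, with Benjamini-Hochberg adjustment. Each group had 3 libraries of 3 mice. The pairing of CD45.1 and CD45.2 by mouse was read from the replicate numbers. The deviations of libraries with the same number correlated by -0.06, 0.06 and 0.15. Alternatives were edgeR 4.0.16 (quasi-likelihood), a mouse block, other filters, total tags and leaving out libraries. The fits were tested on simulated data. Motifs were searched as strings on both strands of the reference. Percentages of regions cover no sampling error of mice. LPS and untreated peaks were called, merged and counted in separate tables, so no LPS to untreated fold change was tested, and only heights of lists are given. In bulk libraries fewer cells of a type and less accessible chromatin per cell cannot be told apart.

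Named regions were the 10 with the highest mean, up to 10 with the smallest adjusted p in each direction, the 10 genes with most regions, up to 4 genes of each list, and the 10 highest promoters. The 9 genes called at rest were named after their values were seen. Gencode vM1 gave the gene around a region. The members and lists were chosen with earlier results of these data known.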

Additional observations from a re-analysis of the deposited data

Results flagged for a closer look

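A signal outside the merged tables was found in the untreated lists of single libraries: 445 of the 1045 new regions overlapped a peak in at least 1 of these 6 lists, although none overlapped the merged untreated table. The highest untreated peak of a region had a median height of 9.86 tags per 10000000, against 23.9 after LPS in the same regions. The LPS lists did not reach down to peaks as low as the untreated lists did.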

How the results depend on the processing

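The number of new regions was 2872 with at least 1 list of each population, 325 with all 6 lists and 1694 when only untreated peaks of at least 2 lists counted. The next 2 settings were chosen after seeing the data. Without regions that had any untreated list peak it was 600, and leaving out 1 LPS list at a time (at least 2 lists of each population still required) it ranged from 455 to 966, with 455 and 472 without CD45.2 mouse 3 or 2, when the shallow CD45.2 mouse 1 list had to hold the peak.

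Calls between populations depended on the tool. edgeR called 107 new regions (85 higher in CD45.1 and 22 in CD45.2). The replicate block, which pairs the populations by replicate number, called 15 (13 and 2). Leaving out 1 library gave 10 to 30 calls, with 9 to 29 higher in CD45.1 and 0 to 8 in CD45.2, and 0 to 6 strict calls. A mean of at least 20 counts left 1 strict call. The cause was not tested. Of the 18 named regions with a call, 6 were called in every fit that tested them, 6 were not called with the replicate block and 2 not with total tags, and none changed direction. For resting gene differences, leaving out 1 library gave 5 to 8 genes. The replicate block changed no other call by more than 1.5 times. The CD45.1 minus CD45.2 difference of the tag share in new regions ranged from 0.146 to 0.221 percentage points without 1 mouse and was 0.131 as a share of all tags.

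In a 100 bp window AP-1 was present in 32.5% and C/EBP in 15.6% of new regions, as the window is shorter. Counting any centre within 1 kb of a start as promoter gave 6.70%. Depth limits most single regions: in the shallowest library 87 of them had 3 tags or fewer.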
